A study of Homo sapiens with 8 samples.

Results

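The genes described here encode the extracellular matrix: collagens, laminins, matrix glycoproteins and the enzymes and inhibitors that crosslink or cut them. Members were chosen by name, as every row called COL, digits, A, digits or LAMA, LAMB or LAMC and a digit, together with 17 listed single genes. There were 35 members among the 12939 genes, of which 16 encode collagen chains and 7 laminin chains, and 12 of the 17 single genes had a row. FBN2, NID1, NID2, THBS2 and BGN were not analysed here, and COL4A3BP, which encodes a lipid transfer protein, was not counted as a collagen. The cells were cancer stem cells (CSCs) sorted from MDA-MB-231, a mesenchymal human breast cancer line, by high GFP under the Oct4a regulatory region and high RFP from the shRNA vector. Libraries were compared from stable, puromycin-selected transfectants with scramble shRNA (3 libraries), CDH2 shRNA (3 libraries) and Cx43 shRNA (2 libraries), and all 3 groups carried the same pRFP-C-RS backbone and the GFP reporter. The CDH2 shRNA was 1 construct out of several tested, named Clone B, so an effect of CDH2 cannot be told apart from an effect of that construct. CDH2 encodes N-cadherin and Cx43, encoded by GJA1, is a gap junction protein, and because neither transcript was analysed here, the extent of knockdown in these CSCs was left unchecked.

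Matrix proteins fall into layers that differ in build. The basement membrane is a thin sheet on which epithelial cells rest, made of a laminin network and a collagen IV network tied together by perlecan and other linkers. The interstitial matrix holds fibrils and beaded filaments of other collagens, and is made largely by fibroblasts. Matricellular proteins such as SPARC, thrombospondin 1 and tenascin-C act on cells without building the scaffold, while MMP14 cuts matrix proteins, TIMPs block such proteases, and lysyl oxidases crosslink collagen. Laminins and most collagens are trimers, so the level of 1 chain gives only part of the protein. In invasive breast cancer these genes are known for their part in migration and in the niche that tumour cells meet.

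Members were put into 5 classes: basement membrane (13 genes, among them AGRN, COL18A1, COL4A1, COL4A2, COL7A1, HSPG2, LAMA3, LAMA5, LAMB1, LAMB2, LAMB3 and LAMC1), interstitial matrix (COL12A1, COL16A1, COL1A1, COL27A1, COL5A1, COL6A1, COL6A2, COL6A3, COL8A1, COL9A2 and FBN1; 11 genes), transmembrane collagens (COL13A1 and COL17A1), matricellular proteins (SPARC, THBS1 and TNC) and remodelling (LOX, LOXL2, MMP14, TIMP1, TIMP2 and TIMP3; 6 genes). COL7A1 forms the anchoring fibrils beneath the basement membrane and COL8A1 is a network-forming collagen, so these memberships follow the site where the protein is mostly described.

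The upstream sequences of the genes on which the results turn are given first, for the 5 genes with an adjusted p under 0.05 that had a usable window and for the collagen IV pair. They come from RefSeq on GRCh38.p14, which matched 28 of the 35 members. Each single-gene window is the longest stretch of the 150 bases before the start that no annotated exon covers. Capitals mark matches on either strand to the letters of 4 motifs. GGGCGG stands for a GC box and CCAAT for the box of that name. TATAAA stands for a TATA box, and TGANTCA for a site of the AP-1 factor. The collagen IV genes start head to head on chromosome 13 and share the 126 bases between their RefSeq starts, chr13:110307158-110307283, shown in the direction of COL4A2. That stretch was not filtered for annotated exons.
COL4A1 to COL4A2: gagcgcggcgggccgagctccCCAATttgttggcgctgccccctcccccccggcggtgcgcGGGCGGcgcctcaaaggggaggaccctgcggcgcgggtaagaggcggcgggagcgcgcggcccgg
TIMP3 lies within an intron of SYN3 on the other strand, and its window is chr22:32801555-32801704 on the plus strand.
TIMP3: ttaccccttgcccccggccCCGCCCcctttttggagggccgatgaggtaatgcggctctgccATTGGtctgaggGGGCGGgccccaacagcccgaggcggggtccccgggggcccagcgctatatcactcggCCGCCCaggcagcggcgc
TIMP1 lies within SYN1 in the same manner, and its window is chrX:47582286-47582407 on the plus strand.
TIMP1: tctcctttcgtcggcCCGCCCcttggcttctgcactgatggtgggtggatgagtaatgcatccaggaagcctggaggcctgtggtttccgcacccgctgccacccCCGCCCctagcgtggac
COL6A2 follows COL6A1 on chromosome 21, and its window is chr21:46097962-46098111 on the plus strand.
COL6A2: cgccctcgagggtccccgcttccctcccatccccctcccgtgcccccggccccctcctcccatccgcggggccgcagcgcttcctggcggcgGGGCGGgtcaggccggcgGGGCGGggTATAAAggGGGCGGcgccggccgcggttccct
The windows of TNC, chr9:115118208-115118307, and COL17A1, chr10:104085881-104086030, are read from the minus strand.
TNC: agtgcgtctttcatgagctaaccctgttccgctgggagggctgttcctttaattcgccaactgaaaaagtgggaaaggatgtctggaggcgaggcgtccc
COL17A1: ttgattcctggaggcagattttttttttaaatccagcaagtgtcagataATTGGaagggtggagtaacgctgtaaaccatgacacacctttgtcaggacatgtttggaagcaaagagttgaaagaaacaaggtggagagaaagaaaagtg

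Of the genes shown that fell with CDH2 shRNA, the windows held 3 GC boxes (TIMP3), 2 (TIMP1) and 3 (COL6A2), and COL6A2 also held a TATA box. The windows of TNC and COL17A1, which rose, held 0 GC boxes. Over full 150-base windows, GC boxes were present in 17 of 28 members and in 36.6% of 27305 promoters, CCAAT boxes in 7 members and 24.4%, TATA boxes in 2 members and 7.14%, and AP-1 sites in 1 member and 4.13%. These are matches of letters, with no measurement of binding.

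The deposited values are log2(CPM + 1) after the authors removed the effect of the sequencing runs, they hold no counts, and the depth of each library is unknown. Because of that correction, the deviations of same-numbered libraries from their group means sum to 0 within 1e-04, and in replicate 3, which has a scramble and a CDH2 library only, they are mirror images. The p-values measure the spread between these libraries, which no label assigns to separate cultures. All 6 mesenchymal markers had a row, with VIM at 9.67 to 9.76 in the group means. So did 4 of 9 luminal or epithelial markers, 1 of 8 fibroblast markers and 2 of 6 endothelial or blood markers. In the scramble libraries the mesenchymal list summed to 2339 to 2393 CPM and the 4 luminal or epithelial genes to 726 to 906 CPM. Of those 4, the keratins KRT8 and KRT18 had scramble means of 8.48 and 8.57 log2(CPM + 1). The count of rows therefore does not stand for the level. In bulk RNA, fewer cells of a type and less RNA per cell cannot be told apart. The share of 13 mitochondrial transcripts was 0.594 to 1.01% in scramble and 1.16 to 2.36% in the shRNA libraries, and its part in the results below was not tested.

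The matrix genes were expressed over a range of more than 2 orders of magnitude. Levels were compared between genes as CPM per kb of canonical transcript, in the scramble libraries. TIMP1, a secreted protease inhibitor, was highest at 126 CPM per kb (range 112 to 141), and the α3 chain of laminin, LAMA3, was lowest at 0.61 (range 0.47 to 0.75). Below TIMP1 came COL6A2 at 69.3, MMP14 at 63.9, TIMP2 at 63.0, SPARC at 61.4 and TIMP3 at 61.0 CPM per kb. Among these 5 genes the ranges of neighbours overlapped except those of COL6A2 and MMP14. COL6A1 at 49.5, LAMB3 at 47.8, THBS1 at 40.7 and LOXL2 at 39.5 CPM per kb followed with overlapping ranges.

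**Figure D1:**
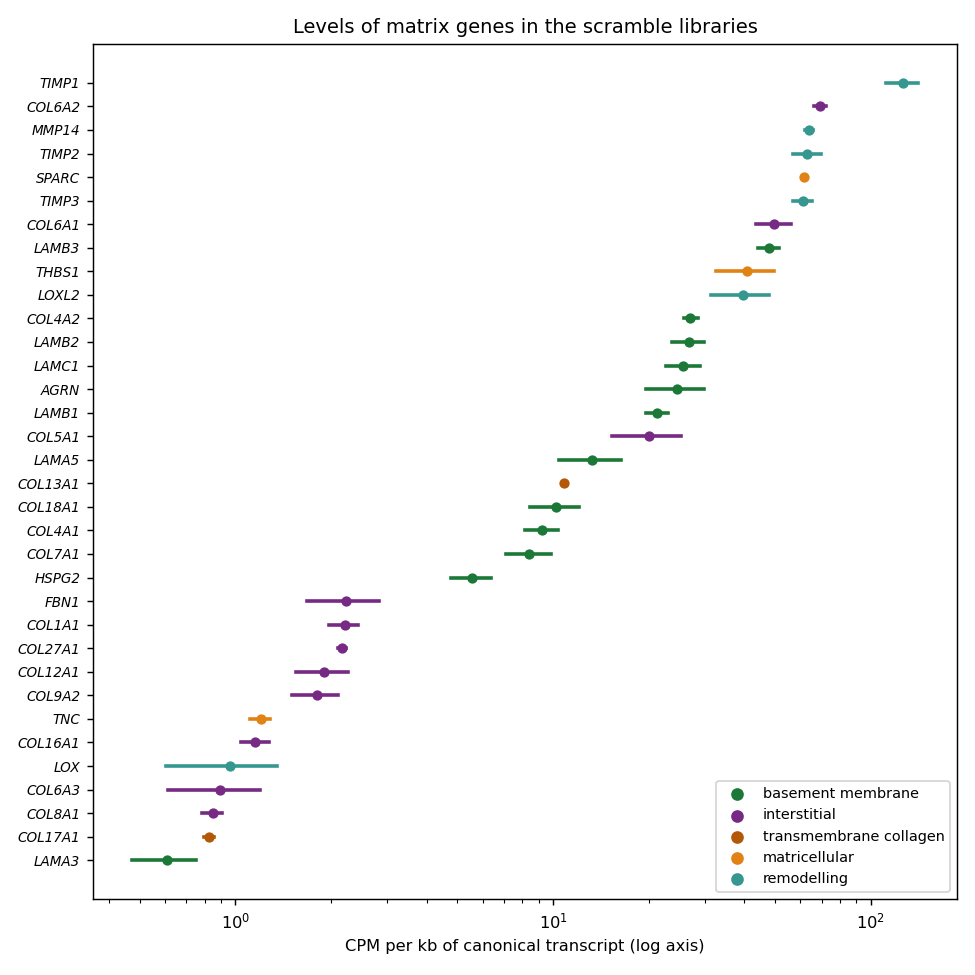
CPM per kb of canonical transcript (log axis) for 34 matrix genes in the scramble libraries, with the mean as a point, the range over 3 libraries as a line and the class as colour. TIMP1, COL6A2, MMP14, TIMP2, SPARC and TIMP3 lie at the top, most basement membrane genes lie between 5.56 and 47.8, and 8 interstitial genes lie between 0.85 and 2.22.

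The classes differed in where their members lay. Of the basement membrane genes, 11 were between 5.56 (HSPG2) and 47.8 CPM per kb (LAMB3), and LAMA3 was the lowest. Of the interstitial genes, COL6A2, COL6A1 and COL5A1 (20.0 CPM per kb) were high, and the remaining 8, including COL1A1 at 2.22 and FBN1 at 2.22, lay between 0.85 and 2.22. COL1A1 encodes the main chain of type I collagen, the bulk fibril of connective tissue.

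Chains that assemble together were not at equal levels. The collagen IV chains COL4A2 and COL4A1 stood at a ratio per kb of 2.74 to 3.16 in scramble, 2.42 to 2.72 in CDH2 shRNA and 2.66 and 2.95 in Cx43 shRNA libraries, so that scramble and CDH2 shRNA did not overlap and Cx43 shRNA overlapped with both. LAMB3 and LAMA3 encode chains of laminin-332, the laminin of epithelial anchorage. LAMB3 exceeded LAMA3 by 58.8 to 170 times per kb in the 8 libraries. Collagen VI is a beaded filament of the COL6A1, COL6A2 and COL6A3 chains. COL6A1 exceeded COL6A3 by 46.9 to 70.9 times in scramble, by 51.3 to 83.5 times in CDH2 shRNA and by 134 and 276 times in Cx43 shRNA libraries. Both Cx43 shRNA ratios lay above all 6 others.

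The first comparison was of CDH2 shRNA with scramble shRNA CSCs, fitted with limma over all genes, where a gene is called to have risen or fallen at an adjusted p under 0.05. Of the 35 members, 7 had an adjusted p under 0.05, against 14.3% of all genes, with 3 higher (background 7.29%) and 4 lower (background 6.98%). TIMP1, TIMP3, COL6A2 and SPARC fell, and TNC, COL8A1 and COL17A1 rose. None of the 35 members also reached the fold threshold that the methods set, a log2 fold change of 0.73, against 2.06% of all genes, and 14 members had an unadjusted p under 0.05 against 37.5% of all genes. The median log2 fold change was -0.03 over the members and 0.007 over all genes. Values of the 2 groups did not overlap in 17 members, 9 higher and 8 lower, while this held for 51.9% of all genes (27.1% higher and 24.8% lower). On each of these counts the matrix genes were close to the background.

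The count changed with the libraries in the fit. Without CDH2 shRNA replicate 1 or 2, Cx43 shRNA replicate 1 or 2, or scramble replicate 1, 0 members had an adjusted p under 0.05, and over all genes at most 10 did. Without scramble replicate 2 the count was 10, against 12.1% of all genes, and without replicate 3 of scramble or of CDH2 shRNA, which give the same fit, it was 18, against 41.0% of all genes. The 7 genes kept their direction in each of these fits.

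Of the 4 genes that fell, TIMP1 and TIMP3 encode inhibitors of matrix proteases. TIMP3, which binds to the matrix it protects, was at 8.13, 8.03 and 8.24 log2(CPM + 1) in scramble replicates 1 to 3, at 7.49, 7.59 and 7.38 in CDH2 shRNA and at 7.44 in both Cx43 shRNA libraries. Every shRNA library lay below every scramble library. TIMP3 changed by -0.65 ± 0.10 on the log2 scale (SE, adjusted p = 0.022) with CDH2 shRNA, a fold of 0.638, and its log2 fold change with Cx43 shRNA was -0.69 ± 0.12 (adjusted p = 0.058). TIMP1 was at 6.60, 6.77 and 6.44 in scramble, at 5.95, 5.91 and 6.18 in CDH2 shRNA and at 5.86 and 5.73 in Cx43 shRNA libraries. Here too the shRNA libraries lay apart from and below scramble. The log2 fold change of TIMP1 was -0.60 ± 0.13 (adjusted p = 0.040) with CDH2 shRNA and -0.81 ± 0.15 (adjusted p = 0.070) with Cx43 shRNA. TIMP1 has the shortest transcript of the members, 769 bases, and after a correction for transcript length and GC content its log2 fold change was -0.29 (adjusted p = 0.051) in CDH2 shRNA and -0.70 (adjusted p = 0.028) in Cx43 shRNA.

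**Figure D2:**
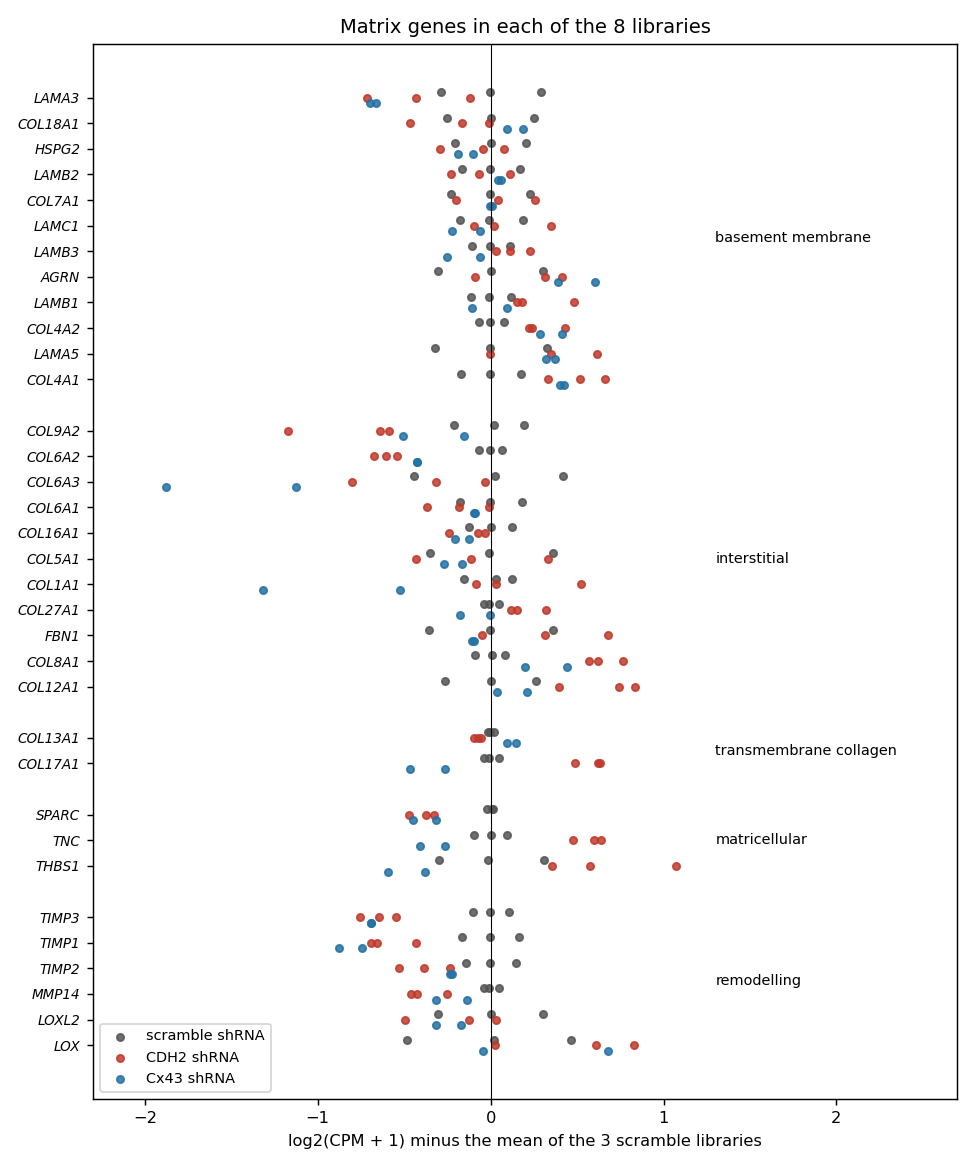
34 matrix genes in each of the 8 libraries, as log2(CPM + 1) minus the mean of the 3 scramble libraries, by class. TIMP1, TIMP2, TIMP3, MMP14, COL6A2 and SPARC have every shRNA library below the scramble points, and COL4A1, COL4A2 and COL8A1 every one above them. The share of all genes with either pattern was not counted.

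MMP14, the membrane-bound protease that TIMP2 and TIMP3 inhibit, was at 7.88, 7.85 and 7.94 in scramble, at 7.43, 7.64 and 7.46 in CDH2 shRNA and at 7.76 and 7.57 in Cx43 shRNA libraries. All 5 shRNA libraries were below scramble, but its change of -0.38 ± 0.10 (adjusted p = 0.058) with CDH2 and of -0.23 ± 0.12 (adjusted p = 0.33) with Cx43 shRNA did not pass the test. TIMP2, chosen for mention after its values were seen, had a log2 fold change of -0.38 (adjusted p = 0.081) with CDH2 and of -0.23 (adjusted p = 0.40) with Cx43 shRNA, with no overlap of groups in either. In both shRNA groups 5 of the 6 remodelling genes had a negative log2 fold change, with medians of -0.38 and -0.24. The exception was LOX, a collagen crosslinking enzyme, at 0.49 (adjusted p = 0.35) with CDH2 and 0.32 (adjusted p = 0.69) with Cx43 shRNA, whose libraries overlapped between groups.

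Among the collagens, COL6A2 fell. It was at 7.90, 7.84 and 7.97 in scramble, at 7.30, 7.36 and 7.23 in CDH2 shRNA and at 7.48 in both Cx43 shRNA libraries. The 3 groups did not overlap, with scramble highest and CDH2 shRNA lowest. With CDH2 shRNA the log2 fold change was -0.61 ± 0.08 (adjusted p = 0.021), and -0.43 ± 0.10 (adjusted p = 0.099) with Cx43 shRNA. The partner chain COL6A1, whose gene lies just upstream, was at 7.70, 7.52 and 7.88 in scramble, at 7.52, 7.69 and 7.33 in CDH2 shRNA and at 7.61 in both Cx43 shRNA libraries, and these ranges overlapped. Per kb, the ratio of COL6A1 to COL6A2 was 0.657 to 0.771 in scramble, 0.880 to 1.03 in CDH2 shRNA and 0.897 and 0.898 in Cx43 shRNA libraries.

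SPARC, a collagen-binding glycoprotein, had the tightest scramble values of the genes that fell. It was at 7.74, 7.75 and 7.71 in scramble, at 7.40, 7.26 and 7.36 in CDH2 shRNA and at 7.28 and 7.42 in Cx43 shRNA libraries. The shRNA groups overlapped each other and lay below scramble. For SPARC the log2 fold change was -0.39 ± 0.09 (adjusted p = 0.040) with CDH2 shRNA and -0.38 ± 0.10 (adjusted p = 0.12) with Cx43 shRNA.

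The 3 genes that rose with CDH2 shRNA were all expressed at a low level in scramble, between 0.82 and 1.20 CPM per kb. TNC, which encodes tenascin-C, a glycoprotein of tumour stroma, was at 3.49, 3.39 and 3.58 in scramble, at 4.12, 4.08 and 3.96 in CDH2 shRNA and at 3.08 and 3.22 in Cx43 shRNA libraries. The 3 groups were separate, with CDH2 shRNA highest and Cx43 shRNA lowest. Its log2 fold change was 0.57 ± 0.10 (adjusted p = 0.027) with CDH2 shRNA and -0.34 ± 0.12 (adjusted p = 0.18) with Cx43 shRNA. COL17A1, the transmembrane collagen of hemidesmosomes, was at 2.49, 2.54 and 2.45 in scramble, at 2.98, 3.13 and 3.11 in CDH2 shRNA and at 2.23 and 2.03 in Cx43 shRNA libraries. The order of the groups was that of TNC. The log2 fold change of COL17A1 was 0.58 ± 0.10 (adjusted p = 0.025) with CDH2 shRNA and -0.37 ± 0.11 (adjusted p = 0.15) with Cx43 shRNA.

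COL8A1 was at 2.52, 2.42 and 2.59 in scramble, at 3.27, 3.13 and 3.08 in CDH2 shRNA and at 2.71 and 2.95 in Cx43 shRNA libraries. Again the groups were separate, but here Cx43 shRNA lay between the others. COL8A1 changed by 0.65 ± 0.11 on the log2 scale (adjusted p = 0.026) with CDH2 shRNA, and its value with Cx43 shRNA was 0.32 ± 0.13 (adjusted p = 0.23). Changes on this scale are understated for such low genes. With a pseudocount of 0.1 in place of 1 COL8A1 also passed the fold threshold in CDH2 shRNA, where 2.88% of all genes were past threshold.

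COL9A2 had the largest difference among the interstitial genes with CDH2 shRNA without passing the test. It encodes a chain of collagen IX, a cartilage collagen, and was at 2.63, 2.81 and 2.40 in scramble, at 1.97, 1.44 and 2.03 in CDH2 shRNA and at 2.11 and 2.46 in Cx43 shRNA libraries. CDH2 shRNA lay below scramble and Cx43 shRNA overlapped with it. Its log2 fold change was -0.80 ± 0.21 (adjusted p = 0.058) with CDH2 shRNA and -0.33 ± 0.25 (adjusted p = 0.49) with Cx43 shRNA.

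**Figure D3:**
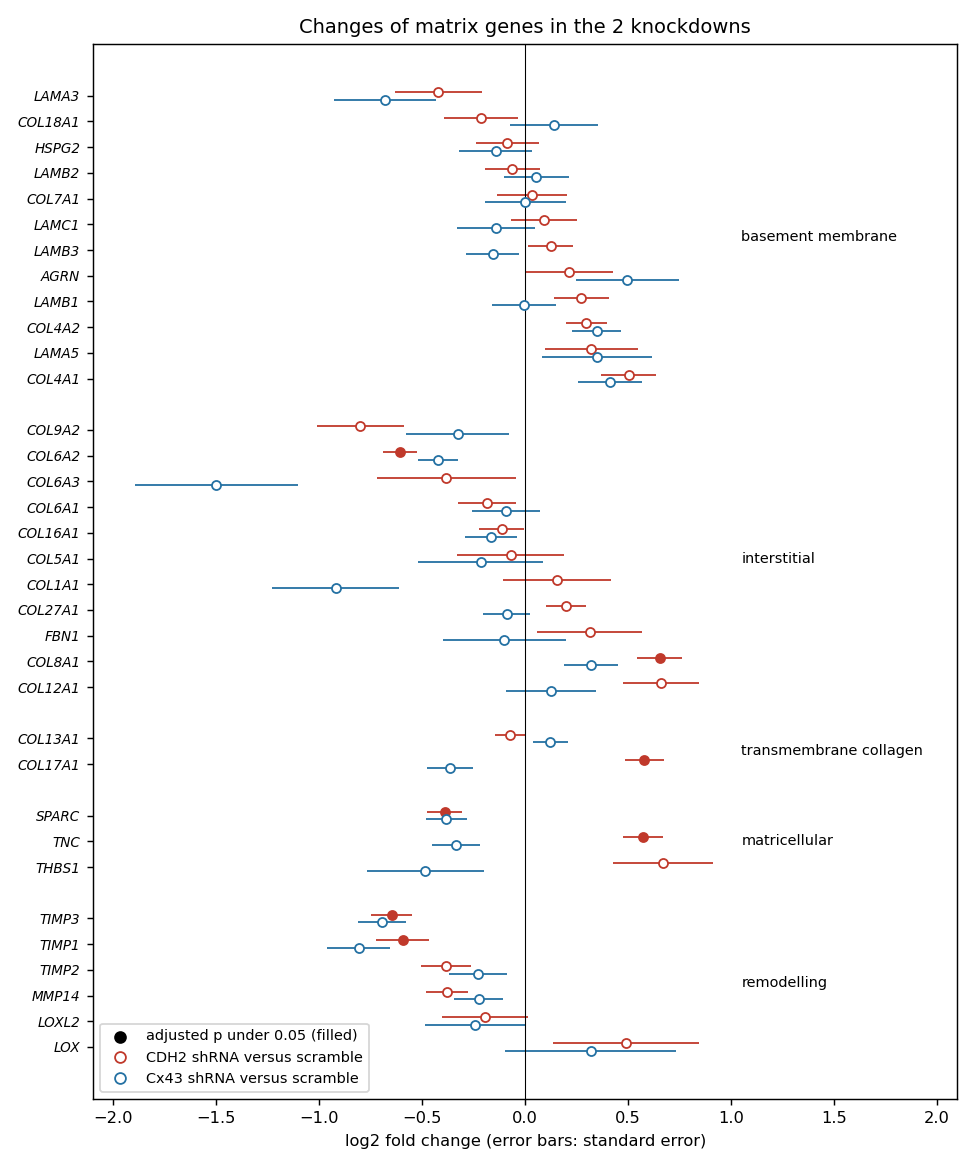
Log2 fold change of 34 matrix genes with CDH2 shRNA (red) and Cx43 shRNA (blue) versus scramble, with standard errors, and filled where the adjusted p is under 0.05. The 7 filled points belong to CDH2 shRNA. Genes with opposite signs in the shRNA groups include TNC, THBS1, COL17A1, COL1A1, COL13A1 and COL18A1.

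The second comparison was of Cx43 shRNA with scramble shRNA CSCs. None of the 35 members had an adjusted p under 0.05 in limma, against 1.21% of all genes, and none was past threshold with a fold of 1.5, against 1.18%. An unadjusted p under 0.05 was found for 13 members against 21.6% of all genes, and without the replicate block 12 members had an adjusted p under 0.05, against 24.3% of all genes. Groups did not overlap in 18 members, against 52.8% of all genes. Of these, 13 were lower, where the background is 21.4%, and 5 higher, where it is 31.4%. The median log2 fold change was -0.16 over the members and 0.04 over all genes, with 24 members below 0 and 11 above. Without scramble replicate 2 the count at an adjusted p under 0.05 was 6 (3.62% of all genes), without replicate 3 of scramble or CDH2 shRNA it was 13 (16.5% of all genes), and without any other library it was 0.

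The largest differences with Cx43 shRNA were in COL6A3, a filament collagen, and COL1A1, a fibril collagen. For other chains of these kinds the log2 fold change was -0.43 (COL6A2), -0.22 (COL5A1), -0.09 (COL27A1) and -0.09 (COL6A1). COL6A3 was at 3.36, 2.90 and 3.76 in scramble, at 3.31, 3.03 and 2.54 in CDH2 shRNA and at 1.47 and 2.21 in Cx43 shRNA libraries. Both Cx43 shRNA libraries lay below the other 6 but were themselves 0.75 apart, and scramble overlapped with CDH2 shRNA. COL6A3 had a log2 fold change of -1.50 ± 0.40 (adjusted p = 0.12) with Cx43 shRNA and -0.38 ± 0.34 (adjusted p = 0.44) with CDH2 shRNA. COL1A1, singled out after its values were seen, was at 3.84, 3.66 and 3.94 in scramble, at 4.33, 3.73 and 3.84 in CDH2 shRNA and at 2.50 and 3.29 in Cx43 shRNA libraries. The pattern was the one seen for COL6A3. The log2 fold change of COL1A1 with Cx43 shRNA was -0.92 ± 0.31 (adjusted p = 0.17).

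LAMA3, the α chain of laminin-332, was at 2.88, 2.60 and 3.17 in scramble, at 2.45, 2.77 and 2.17 in CDH2 shRNA and at 2.22 and 2.18 in Cx43 shRNA libraries, with both Cx43 shRNA libraries below scramble. Its log2 fold change was -0.68 ± 0.25 (adjusted p = 0.19) with Cx43 shRNA and -0.42 ± 0.21 (adjusted p = 0.20) with CDH2 shRNA. The partner chain LAMB3 stayed between 7.33 and 7.82 in all 8 libraries, with a log2 fold change of 0.12 (adjusted p = 0.44) with CDH2 and -0.16 (adjusted p = 0.52) with Cx43 shRNA.

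The collagen IV pair, whose shared upstream stretch is printed above, was higher in both shRNA groups without passing the test. COL4A1 was at 5.93, 5.76 and 6.11 in scramble, at 6.45, 6.60 and 6.26 in CDH2 shRNA and at 6.34 and 6.36 in Cx43 shRNA libraries. All 5 shRNA libraries lay above scramble. COL4A1 had a log2 fold change of 0.50 ± 0.13 (adjusted p = 0.059) with CDH2 and 0.41 ± 0.16 (adjusted p = 0.21) with Cx43 shRNA. COL4A2 was at 7.45, 7.38 and 7.53 in scramble, at 7.69, 7.89 and 7.67 in CDH2 shRNA and at 7.87 and 7.74 in Cx43 shRNA libraries. It too had no overlap with scramble, and its log2 fold change was 0.30 ± 0.10 (adjusted p = 0.093) with CDH2 and 0.35 ± 0.12 (adjusted p = 0.18) with Cx43 shRNA.

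The direct comparison of CDH2 with Cx43 shRNA tested whether the effects differ, since both share the scramble libraries. None of the 35 members had an adjusted p under 0.05, nor did any of the 12939 genes (0.0%). With an unadjusted p under 0.05 there were 8 members against 20.0% of all genes, and without the block 7 had an adjusted p under 0.05, against 21.5% of all genes. Groups did not overlap in 18 members, against 50.8% of all genes, with 13 higher in CDH2 shRNA (background 21.8%) and 5 lower (background 29.1%). Without scramble replicate 2 the count at an adjusted p under 0.05 was 7 (6.69% of all genes), without replicate 3 of scramble or CDH2 shRNA it was 9 (16.5% of all genes), and without any other library it was 0.

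THBS1, which encodes thrombospondin 1, an inhibitor of angiogenesis and activator of TGFβ, had the largest difference between the shRNA groups. It was at 8.28, 7.99 and 8.60 in scramble, at 8.86, 9.36 and 8.65 in CDH2 shRNA and at 7.91 and 7.70 in Cx43 shRNA libraries. CDH2 shRNA lay above and Cx43 shRNA below every scramble library, although CDH2 shRNA replicate 3 was within 0.05 of scramble replicate 3. THBS1 had a log2 fold change of 0.67 ± 0.24 (adjusted p = 0.11) with CDH2 shRNA, -0.48 ± 0.29 (adjusted p = 0.38) with Cx43 shRNA and 1.15 ± 0.29 (adjusted p = 0.15) between them. TNC and COL17A1 differed by 0.91 ± 0.12 and 0.95 ± 0.11 (adjusted p = 0.12 for each), COL6A3 by 1.12 ± 0.40 (adjusted p = 0.21) and COL1A1 by 1.08 ± 0.31 (adjusted p = 0.17). COL13A1, a transmembrane collagen of cell adhesions, moved little, with 5.13, 5.15 and 5.11 in scramble, 5.03, 5.06 and 5.07 in CDH2 shRNA and 5.27 and 5.23 in Cx43 shRNA libraries. Its groups were separate, and its difference of -0.20 ± 0.08 (adjusted p = 0.27) did not pass the test.

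Basement membrane genes were compared with interstitial genes as classes, by description only. With CDH2 shRNA, 8 of the 13 basement membrane genes had a log2 fold change above 0, with a median of 0.09, as did 5 of the 11 interstitial genes, with a median of -0.07. With Cx43 shRNA the counts were 7 of 13, with a median of 0.00, and 2 of 11, with a median of -0.17. The difference between the medians was 0.16 with CDH2 shRNA and 0.17 with Cx43 shRNA. It was 0.019 in CDH2 shRNA without replicate 3 of scramble or of CDH2 shRNA, and -0.048 after genes with low values were left out.

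Class means by library gave the spread behind these medians. The mean over basement membrane genes was 6.25 to 6.61 log2(CPM + 1) in scramble, 6.33 to 6.72 in CDH2 shRNA and 6.39 and 6.45 in Cx43 shRNA libraries, so the groups overlapped. Over interstitial genes it was 4.51 to 4.85, 4.50 to 4.76 and 4.28 and 4.47, with Cx43 shRNA below scramble. The basement membrane mean minus the interstitial mean was 1.73 to 1.76 in scramble, 1.73 to 1.97 in CDH2 shRNA and 1.92 and 2.17 in Cx43 shRNA libraries. Both Cx43 shRNA libraries lay above scramble, while CDH2 shRNA overlapped with both groups. The largest interstitial changes with Cx43 shRNA were in genes of low level, COL6A3 (-1.50) and COL1A1 (-0.92). The high interstitial genes COL6A2, COL5A1 and COL6A1 were at -0.43, -0.22 and -0.09.

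**Figure D4:**
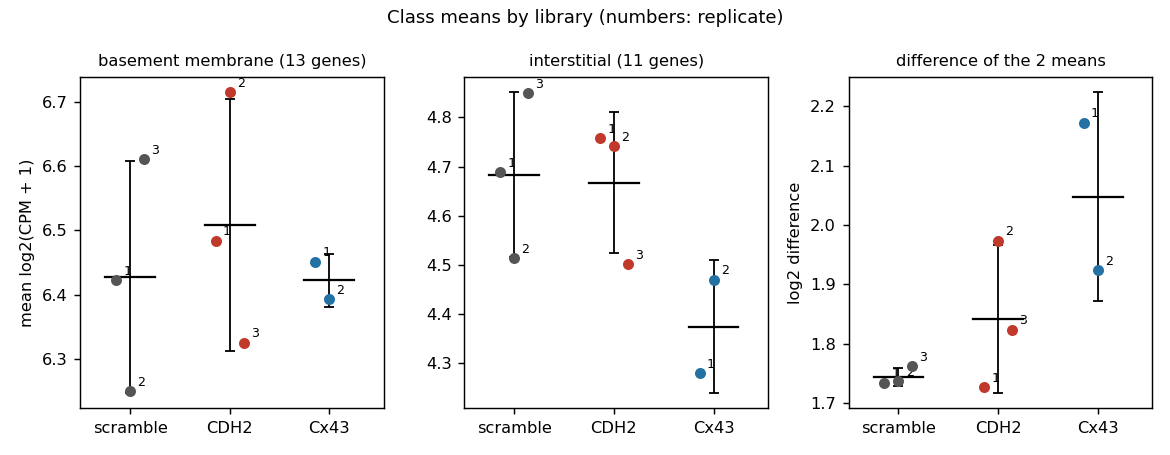
Mean log2(CPM + 1) of 13 basement membrane genes, of 11 interstitial genes, and the difference of these means, with a point per library numbered by replicate and bars for group mean ± SD. In the right panel scramble lies at 1.73 to 1.76 and both Cx43 shRNA libraries above it at 1.92 and 2.17, and the axes do not start at 0.

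Within groups, the matrix genes moved together across libraries. Scramble replicate 3 was highest and replicate 2 lowest in 29 of the 35 members (82.9%), against 48.0% of all genes. In 25 members (71.4%, against 39.5% of all genes) CDH2 shRNA replicate 3 was also the lowest of its group, which follows in part from the mirrored deviations in replicate 3. The pattern was present in 12 of 13 basement membrane and 10 of 11 interstitial genes for scramble. As a share of all CPM, the 35 members ran from 0.482 to 0.611% over the scramble libraries, from 0.472 to 0.603% over CDH2 shRNA and stood at 0.472% in both Cx43 shRNA libraries.

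Transcript length moved with the changes. Members have long transcripts, with a median of 5650 bases against 3255 over all genes, and a GC content of 57.5% against 48.2%. With CDH2 shRNA, Spearman's correlation of transcript length with the log2 fold change was 0.50 across 11888 genes and 0.52 across the 35 members, which share libraries and are not independent. The 17 members longer than the median had a median log2 fold change of 0.20, with 12 above 0, and the other 18 a median of -0.19, with 5 above 0. With Cx43 shRNA the correlations were 0.13 and 0.23. Deviations were then taken from the mean of each gene over all 8 libraries, so they include the differences between groups. Length and GC content took up 41.9% of their variance in CDH2 shRNA replicate 2 and 35.3% in CDH2 shRNA replicate 1. The share was 35.1% in scramble replicate 2 and 0.902 to 19.4% in the others. A correction for both therefore also removes group differences that go with length or GC content. After correction for both, 6 members had an adjusted p under 0.05 in CDH2 shRNA, against 12.1% of all genes, with TIMP1 lost. Of these, TIMP3 reached the fold threshold at -0.76, where 1.14% of all genes were past threshold. TIMP1 and TIMP3 were then past threshold in Cx43 shRNA, at -0.70 (adjusted p = 0.028) and -0.72 (adjusted p = 0.029). There 3.31% of all genes had an adjusted p under 0.05 and 1.96% were past threshold.

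**Figure D5:**
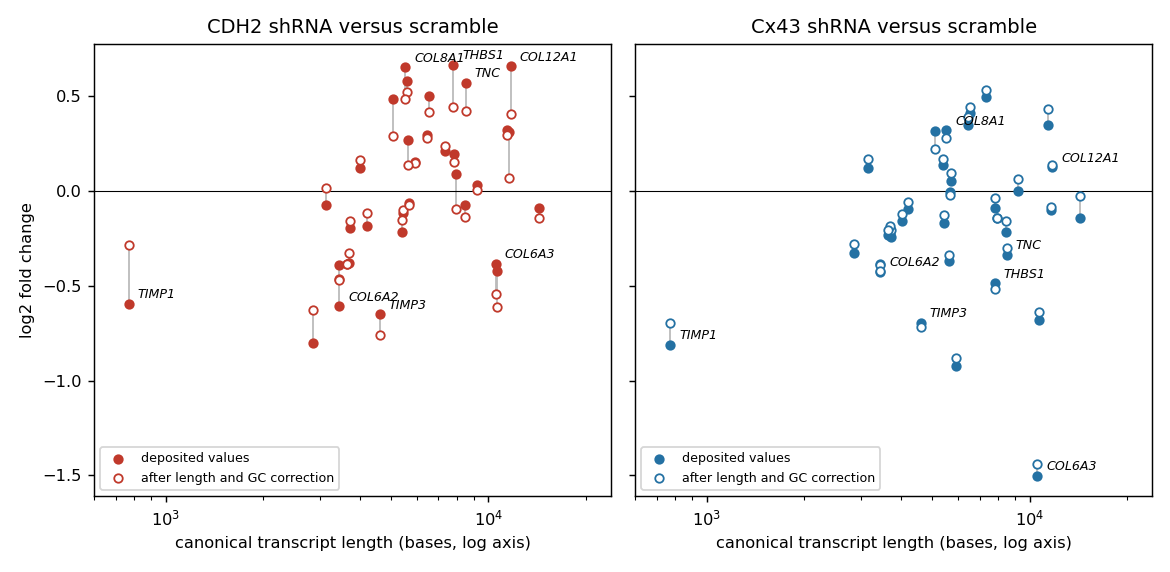
Log2 fold change against canonical transcript length (log axis) for 34 matrix genes, with CDH2 shRNA on the left and Cx43 shRNA on the right, as deposited (filled) and after length and GC correction (open). Shorter genes lie lower and longer genes higher with CDH2 shRNA, and TIMP1, at 769 bases, moves from -0.60 to -0.29.

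Genes of the same pathway that were not members were counted by lists. Of 25 collagen biosynthesis and crosslinking genes with a row, 0 had risen and 5 had fallen with CDH2 shRNA, where 7.29% of all genes rose and 6.98% fell, the background for each of the 4 lists. With CDH2 shRNA 2.06% of all genes were past threshold, the background for the list genes so called. LOXL4, a lysyl oxidase, was past threshold, at 4.64 to 5.19 in scramble, 3.46 to 3.91 in CDH2 shRNA and 3.39 and 3.60 in Cx43 shRNA libraries (-1.18 on the log2 scale with CDH2 shRNA, adjusted p = 0.025, and -1.43 with Cx43 shRNA, adjusted p = 0.054). P4HA2, FKBP10, PCOLCE2 and LOXL1, which modify, fold, process or crosslink procollagen, fell by 0.33 to 0.52 on the log2 scale. Of 21 matrix proteases and inhibitors, 0 had risen and 3 had fallen with CDH2 shRNA, of which MMP11 (-1.19, adjusted p = 0.016) and MMP17 (-1.02, adjusted p = 0.016) were past threshold and MMP19 (-0.45, adjusted p = 0.045) was not. MMP19 was past threshold with Cx43 shRNA, at -1.05 (adjusted p = 0.035), as the sole gene of the 4 lists. In that comparison 1.18% of all genes were past threshold.

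Of 13 matrix receptors, 0 had risen and 3 had fallen with CDH2 shRNA. ITGA7, a laminin receptor subunit, had a log2 fold change of -0.94 (adjusted p = 0.020) and ITGB4, the hemidesmosome integrin that binds laminin-332, of -0.83 (adjusted p = 0.028), both past threshold, and the laminin receptor BCAM of -0.53 (adjusted p = 0.039). Of 21 other matrix genes, 0 had risen and 2 had fallen, namely MFAP2, a microfibril protein (-0.59, adjusted p = 0.031), and IGFBP7 (-0.38, adjusted p = 0.049). The medians of the 4 lists with CDH2 shRNA were -0.20, -0.14, -0.21 and -0.08, beside 0.007 over all genes. Of the markers, 3 of the 6 mesenchymal genes were above scramble and 3 below with either shRNA, and of these S100A4 alone passed the test, with a log2 fold change of -1.51 (adjusted p = 0.016) with CDH2 shRNA and -1.22 (adjusted p = 0.042) with Cx43 shRNA. All 4 luminal or epithelial genes were below scramble with CDH2 shRNA, where EPCAM passed the test at -0.37 (adjusted p = 0.035), and 3 of 4 with Cx43 shRNA, where none passed. PDGFRB, the sole fibroblast marker with a row, had a log2 fold change of -0.63 (adjusted p = 0.044) with CDH2 and of -0.72 (adjusted p = 0.10) with Cx43 shRNA. Their part in the results was not tested. The calls of the lists and markers rest on the same libraries as those of the members, since in either comparison at most 10 of all genes passed without CDH2 shRNA replicate 1 or 2, Cx43 shRNA replicate 1 or 2, or scramble replicate 1.

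Some members could not be separated fully from neighbours. LAMA5, LAMB1 and LOX share exon bases with a gene on the other strand that has a row, and LOXL2 with ENTPD4 on its own strand. Whether the authors' counting used strand is not given in the sources used here. COL4A1 and COL4A2 share 0 exon bases.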

How the data were processed

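RNA-Seq was made from 8 libraries of CSCs with scramble, CDH2 or Cx43 shRNA, after depletion of ribosomal RNA. The authors aligned the reads with STAR (2.6.1 in the submitters' processing notes) to hg38 in Partek Flow, quantified genes by expectation-maximization, took out a low-quality sample, removed low genes and a sequencing run effect, and deposited log2(CPM + 1) values. Each file holds 12939 genes and 1 unnamed row, which was dropped. The members and lists were chosen with earlier results of these data known. Values of 1 member, which enters the counts and class means, are not reported here.

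All genes were fitted with limma 3.58.1 (R 4.3.3), lmFit and eBayes, over all 8 libraries, with the group and the replicate number as a block, because the run effect had been removed (3 residual degrees of freedom plus 2.84 from the prior, with residuals in 2 directions). The residuals thus vary in fewer directions than the degrees of freedom used, so standard errors and adjusted p-values may be too small. The labels give the replicate numbers but name no run. Column names of same-numbered libraries share a scheme that looks like a sequencing run, so the link of replicate number to run is inferred. P-values were two-sided and adjusted by Benjamini-Hochberg over all genes. Past threshold means an adjusted p under 0.05 and the fold of the methods, a log2 fold change of 0.73 (CDH2) or 0.58 (Cx43, and CDH2 versus Cx43). CPM per kb used GENCODE release 44 canonical transcripts. The code of the fit was tested on simulated data with independent noise, which does not measure its error rate in these data. Genes given with each library's value were those with an adjusted p under 0.05, the largest change of each class in each knockdown, the 2 highest per class and partner chains. Alternatives were no block, quantile normalization, median centring, a filter keeping the top 75% of genes, a pseudocount of 0.1, a mean-variance trend, only the groups compared, length and GC correction, an adjusted p under 0.1, and leaving out each library.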

Additional observations from a re-analysis of the deposited data

Results flagged for a closer look

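In COL17A1, TNC, THBS1 and COL13A1 every same-numbered difference from scramble had one sign with CDH2 shRNA and the opposite sign with Cx43 shRNA. How many of all genes do so was not counted, so the pattern cannot be read as a trait of the matrix genes. COL17A1 was 0.49 to 0.66 above scramble with CDH2 shRNA and 0.26 to 0.51 below with Cx43 shRNA on the log2 scale, a difference of 0.95 ± 0.11 (SE). TNC was 0.39 to 0.69 above and 0.17 to 0.41 below, a difference of 0.91 ± 0.12. THBS1 was 0.05 to 1.37 above and 0.29 to 0.36 below, a difference of 1.15 ± 0.29. COL13A1 was 0.04 to 0.10 below with CDH2 shRNA and 0.08 to 0.15 above with Cx43 shRNA, a difference of -0.20 ± 0.08. The difference itself was tested with limma across all genes and did not pass in any of them, with adjusted p-values of 0.12, 0.12, 0.15 and 0.27. Only 2 Cx43 shRNA libraries bear on each sign, and no gene among 12939 passed this comparison.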

How the results depend on the processing

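The counts of members with an adjusted p under 0.05 depended on how the spread was estimated, while the signs of the 7 genes that changed with CDH2 shRNA did not differ in any fit. Without the replicate block, 14 members had an adjusted p under 0.05 with CDH2 shRNA (43.3% of all genes) and 1 (COL9A2) was past threshold (2.56%). The 2 counts were 12 (24.3%) and 5 (4.11%) with Cx43 shRNA, and 7 (21.5%) and 4 (2.78%) between the shRNA groups. With only the groups compared in the fit, the counts were 0 for CDH2 shRNA (0 of all genes). They were 16 (21.7% of all genes) and 6 past threshold (5.73%) for Cx43 shRNA, and 5 (4.32%) and 5 (3.20%) between the shRNA groups. Length and GC correction with the block gave 1 past threshold for CDH2 shRNA (1.14% of all genes), and 2 (3.31%) and 2 (1.96%) for Cx43 shRNA. A pseudocount of 0.1 put 1 member past threshold in CDH2 shRNA (2.88% of all genes). An adjusted p under 0.1 put 1 past threshold in CDH2 shRNA and 2 in Cx43 shRNA, and the share of all genes was not counted there. Leaving out each library in turn gave 0 to 18 members with an adjusted p under 0.05 for CDH2 shRNA (0 to 41.0% of all genes). Past threshold were 0 to 6 (0 to 5.59%). The ranges were 0 to 13 (0 to 16.5%) and 0 to 6 (0 to 5.64%) for Cx43 shRNA. Between the shRNA groups they were 0 to 9 (0 to 16.5%) and 0 to 8 (0 to 4.21%). The cause was not tested.

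The basement membrane median minus the interstitial median with CDH2 shRNA was 0.16, but -0.048 after the filter on low values, which keeps 28 members, and 0.019 to 0.29 with a library left out. With Cx43 shRNA it was 0.12 to 0.20 with a library left out. Of the 105 log2 fold changes of members over the 3 comparisons, 34 turned sign in at least 1 alternative, and none of these had an adjusted p under 0.05 with all 8 libraries. The largest of the 34 was 0.38 in size (COL6A3 with CDH2 shRNA), and LOX with Cx43 shRNA, at 0.32, ran down to -0.22. The genes described one by one were the following. Between the shRNA groups SPARC was -0.0091, but 0.014 under quantile normalization, 0.0055 under median centring and -0.11 to 0.092 with a library left out. TIMP3 was 0.046, but -0.041 after length and GC correction and -0.057 to 0.10 with a library left out, and COL4A1 was 0.091, but -0.030 and -0.070 to 0.18. With a library left out COL4A2 ran from -0.18 to 0.047 and LAMA3 from -0.045 to 0.41. With CDH2 shRNA COL6A3 ran from -0.74 to 0.037, and COL13A1 was 0.015 after length and GC correction. The files hold no counts, so the number of libraries limits the precision.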
